A study of Danio rerio with 11 samples.

Results

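The extracellular matrix genes described here are 52 zebrafish genes for collagens, laminins, fibronectins, integrins, matricellular proteins, matrix proteases and their inhibitors, and lysyl oxidases, followed in wild-type and spt embryos at 2 stages. They were chosen by gene symbol alone, under a rule set with earlier results of these data known. A gene was a member when a probe set annotated to a single gene carried a symbol starting with col and a digit, lama, lamb, lamc, itga, itgb, fn1, fbn, thbs, tnc, postn, sparc, mmp, timp, adamts or lox. They are 52 of the 8793 genes named on the array, with 63 of the 15502 probe sets tested. Each gene is represented by its brightest probe set over all arrays, and 42 genes have only 1. No fibrillin or ADAMTS symbol met the rule, so neither family is described.

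The extracellular matrix is the network of secreted proteins to which the cells of an embryo attach. Fibronectin fibrils form around the presomitic mesoderm and at somite borders, where integrins on the cell surface bind them and help to assemble them. Laminins and some of the nonfibrillar collagens build basement membranes, which in zebrafish include the sheath around the notochord, while fibrillar collagens give connective tissue its strength. Proteases of the matrix metalloproteinase (MMP) family cut these proteins, tissue inhibitors (TIMPs) restrain the proteases, and lysyl oxidases cross-link collagen.

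The mutant embryos were homozygous for the b104 allele of spt (tbx16), which encodes a T-box transcription factor, and the wild-type embryos were spt+/+ offspring of the same cross with a line that carries GFP under the pax2a promoter. At the 4/5-somite stage, GFP-positive cells of the intermediate mesoderm were sorted from the minced trunks and tails of pooled embryos, and RNA went through 2 rounds of amplification. At the 21-somite stage, the middle tail of pooled embryos, not selected for GFP, was dissected with its somites, notochord, spinal cord and other tissues, and RNA was not amplified. There were 2 wild-type and 3 spt arrays at 4/5 somites and 3 of each at 21 somites, from separate clutches according to the methods, and 1 further wild-type array of the earlier stage was left out by the authors. Sort purity was not measured on the few cells obtained.

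The gene carrying the mutation, tbx16, gave signals of 1485, 958 and 1296 on the wild-type tail arrays and 424, 409 and 445 on the spt arrays. Its log2 fold change was -1.49 (limma adjusted p = 0.0065), with no overlap between the genotypes. At 4/5 somites it lay near 100 in both, at 102 and 103 in wild type and 78.6, 98.8 and 94.3 in spt, so it did not check the labels of that stage. A signal of 100 is the level that the methods use as a filter for expression, and a matrix gene below it on all arrays compared is given without a fold change. In the sorted cells pax2a, the gene whose promoter drives the GFP, read 268 and 267 in wild type and 1012, 1293 and 517 in spt. Of the 6 pronephros markers, which include pax2a, 1 was below 100 on all arrays of sorted cells. The third spt array of the sorted cells (replicate 5) had cdh17, a cadherin of the pronephric duct, at 40.5, against 1825 and 464 on the other spt arrays.

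**Figure D1:**
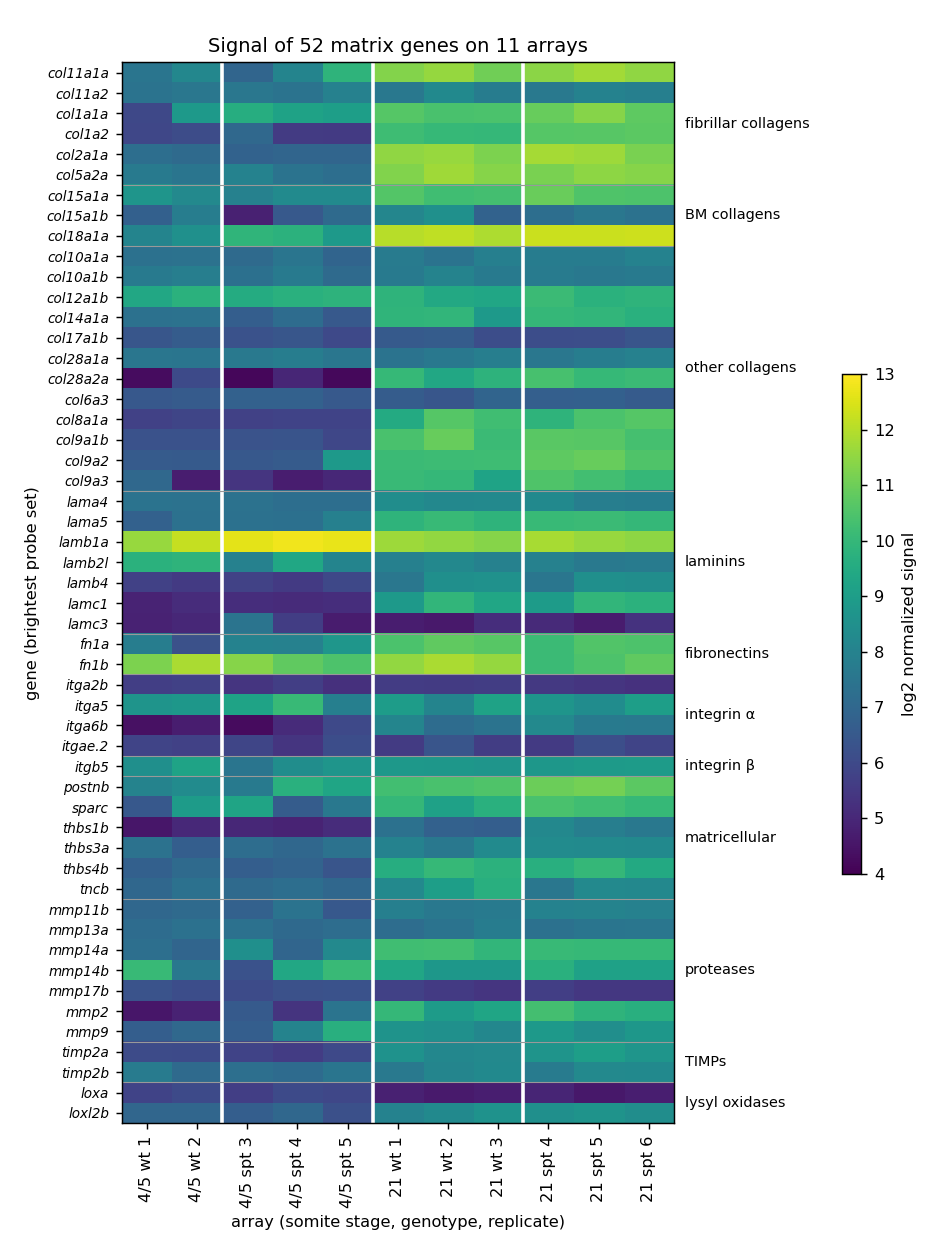
Signals of the 52 matrix genes (rows, brightest probe set, grouped by role; BM, basement membrane) on the 11 arrays (columns: somite stage, genotype, replicate). Colour is the log2 of the signal after quantile normalization within each stage, to be read along a row, since probe sets of different genes are not on 1 scale. Collagen rows such as col2a1a and col9a1b are dark at 4/5 somites and bright at 21 somites in both genotypes, and fn1b is dimmer in the 3 spt tail arrays.

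In the tail at 21 somites, a single matrix gene passed the test between spt and wild type. It was fn1b, a fibronectin gene, which was lower in spt, and 0 of 52 genes were higher at an adjusted p under 0.05. Over all probe sets, 0.181% were called higher and 0.51% lower, so 1 call among 52 is not a result about the matrix genes as a group. The log2 fold changes of the 52 genes had a median of 0.12, with 34 above 0, beside a median of 0.00 over all probe sets.

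The fn1b signals were 3001, 3687 and 3073 in wild type and 1133, 1439 and 1791 in spt. All 3 spt arrays were below all 3 wild-type arrays, and the group means were 3254 ± 377 (SD, n = 3) and 1454 ± 329 (SD, n = 3). The log2 fold change was -1.17 with a standard error of 0.17 (limma adjusted p = 0.018), and by p the gene ranked 72 among all probe sets. The call depended on single arrays. The adjusted p was 0.101 without wild-type replicate 2, 0.0728 without wild-type replicate 3 and 0.076 without spt replicate 5, while the log2 fold change stayed between -1.33 and -1.01. When all 11 arrays were fitted together, with 1 spread for both stages, the limma adjusted p was 0.173.

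The other fibronectin gene, fn1a, encodes a protein of the same family that is needed in zebrafish for the heart primordia to meet at the midline. It read 1405, 1801 and 1610 in wild-type tails and 1130, 1504 and 1437 in spt tails. The genotypes overlapped, and the log2 fold change was -0.24 with a standard error of 0.16 (limma adjusted p = 0.938). Both fibronectin genes thus had negative values, but only the change of fn1b passed the test, and the difference between the genes was not tested.

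An integrin that binds fibronectin has the alpha 5 chain, encoded by itga5. Its signals were 499, 269 and 576 in wild type and 410, 330 and 532 in spt, and the spt arrays fell within the wild-type range. The log2 fold change was -0.03 with a standard error of 0.29. For itgb5, the only beta chain among the members, the arrays read 444, 438 and 414 in wild type and 438, 484 and 495 in spt, which also overlap. The gene itga6b, for a laminin receptor chain, read 272, 145 and 172 in wild type and 299.6, 206 and 200.4 in spt. Neither itga2b, the alpha chain of the thrombocyte fibrinogen receptor, nor itgae.2 reached 100 on any array of either stage, with itga2b between 39.4 and 50.1 in the tails.

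Several matrix genes lay higher in spt tails on every array, without passing the test. The arrays of the genotypes did not overlap for 9 genes that were higher in spt, 17.3% of the members beside 6.01% of all probe sets. They did not overlap either for 2 genes that were lower, fn1b and itga2b, 3.85% beside 6.2%. At an unadjusted p under 0.05 there were 8 higher, 15.4% beside 3.91%, and 2 lower, 3.85% beside 3.54%. Both rules were chosen after the data had been seen, and none of the 9 higher genes was called by the adjusted p. In a dissected tail, a change in the share of cells of a type and a change in RNA per cell cannot be told apart.

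The genes for the chains of type I collagen, the main fibrillar collagen, were in this group. The col1a2 signals were 1186, 1048 and 1011 in wild type and 1580, 1625 and 1709 in spt. Every spt array was above every wild-type array, and the log2 fold change was 0.59 with a standard error of 0.13 (limma adjusted p = 0.108). Its partner chain col1a1a read 1589, 1373 and 1409 in wild type and 1939, 2665 and 1756 in spt. The groups did not overlap here either, with a log2 fold change of 0.52 and a standard error of 0.17 (adjusted p = 0.385). For each of these genes a second probe set gave a value near the first, 0.48 for col1a2 and 0.59 for col1a1a.

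The other fibrillar collagens were closer to wild type. The col2a1a gene, which encodes the type II collagen of the notochord sheath and of cartilage, read 2879, 3111 and 2378 in wild type and 3519, 3277 and 2320 in spt. The spt arrays spanned the wild-type range, with a log2 fold change of 0.11. The genes col11a1a, col11a2 and col5a2a had log2 fold changes of 0.25, -0.05 and -0.11, all with adjusted p-values above 0.9 in limma. Of the 6 fibrillar collagen genes 4 had positive values, 0 were called and the median was 0.18.

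Among the other collagens, 10 of 12 had positive values with a median of 0.17, and 0 were called. Type IX collagen decorates type II fibrils, and its col9a2 chain read 1135, 1149 and 1187 in wild type and 1742, 1929 and 1479 in spt. The groups did not overlap, and the log2 fold change was 0.55 with a standard error of 0.14 (limma adjusted p = 0.189). The chains that accompany it were less separated, with col9a3 at 0.49 and a standard error of 0.24, and col9a1b at 0.08 and a standard error of 0.20. Only col17a1b and col10a1b had negative values, and col17a1b, whose product anchors epidermal cells, stayed below 100 on all 6 tail arrays.

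Basement membrane genes had small values between the genotypes, and 0 were called. The brightest member of its group, col18a1a, whose product can release endostatin, read 4228, 4484 and 3811 in wild type and 4914, 4967 and 5096 in spt. The arrays did not overlap, and the log2 fold change was 0.26 with a standard error of 0.08 (limma adjusted p = 0.393). The other collagens of this kind, col15a1a and col15a1b, had values of 0.28 and -0.40 with overlapping arrays. Of the 7 laminin genes, 4 had positive and 3 negative values, between -0.30 for lama4 and 0.16 for lamc1. The other lama4 probe set gave 0.05. The lamb1a gene, for the beta 1 chain, read 3299, 2992 and 2638 in wild type and 3624, 3152 and 2812 in spt, and lamc1, for the gamma 1 chain, read 469, 982 and 650 in wild type and 496, 961 and 889 in spt. Loss of either chain disrupts the notochord sheath in zebrafish, and for both genes the genotypes overlapped. The lama5 arrays, for an alpha chain needed in the fin fold, lay between 924 and 1122 in the 2 genotypes together.

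Matricellular proteins sit in the matrix and modulate adhesion more than they build structure, and their genes held the widest differences after fn1b. The thrombospondin gene thbs1b read 164, 112 and 103 in wild type and 291, 232 and 195 in spt. Every spt array was above every wild-type array, and the log2 fold change was 0.85 with a standard error of 0.21 (limma adjusted p = 0.171). Periostin, encoded by postnb, binds collagen, and its gene read 1241, 1362 and 1455 in wild type and 2011, 2220 and 1707 in spt. Its groups were likewise apart, at 0.54 with a standard error of 0.14 (adjusted p = 0.213). The sparc gene, for a collagen-binding protein also called osteonectin, read 1012, 564 and 843 in wild type and 1367, 1208 and 1035 in spt, where the lowest spt array was barely above the highest wild-type array.

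In the opposite direction, the tenascin gene tncb read 302, 522 and 821 in wild type and 189, 303 and 295 in spt. The wild-type arrays spread widely and 1 spt array exceeded the lowest of them. The log2 fold change was -0.94 with a standard error of 0.33 (limma adjusted p = 0.467). The thrombospondin genes thbs3a and thbs4b had values of 0.32 and -0.09, with adjusted p-values of 0.881 and 1.

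The 7 protease genes and 2 TIMP genes were not called in the tail. The gelatinase gene mmp2 read 1025, 495 and 633 in wild type and 1256, 928 and 824 in spt. The membrane protease MMP14 activates this enzyme with the help of TIMP2, and mmp14a read 1214, 1247 and 977 in wild type and 1063, 1049 and 1053 in spt. Both genes overlapped between the genotypes. The timp2a gene did not, with 387, 289 and 302 in wild type and 404, 523 and 417 in spt, at a log2 fold change of 0.44 and a standard error of 0.18 (limma adjusted p = 0.584). The mmp11b gene, for stromelysin 3, was also apart, at 237, 194 and 212 in wild type and 257, 260.2 and 246 in spt, with a log2 fold change of 0.24. The other protease and TIMP genes lay between -0.01 and 0.36 with overlapping arrays, apart from mmp17b, which was below 100 on all tail arrays. Of the lysyl oxidase genes, loxl2b had a value of 0.21 and loxa was below 100 on every array.

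**Figure D2:**
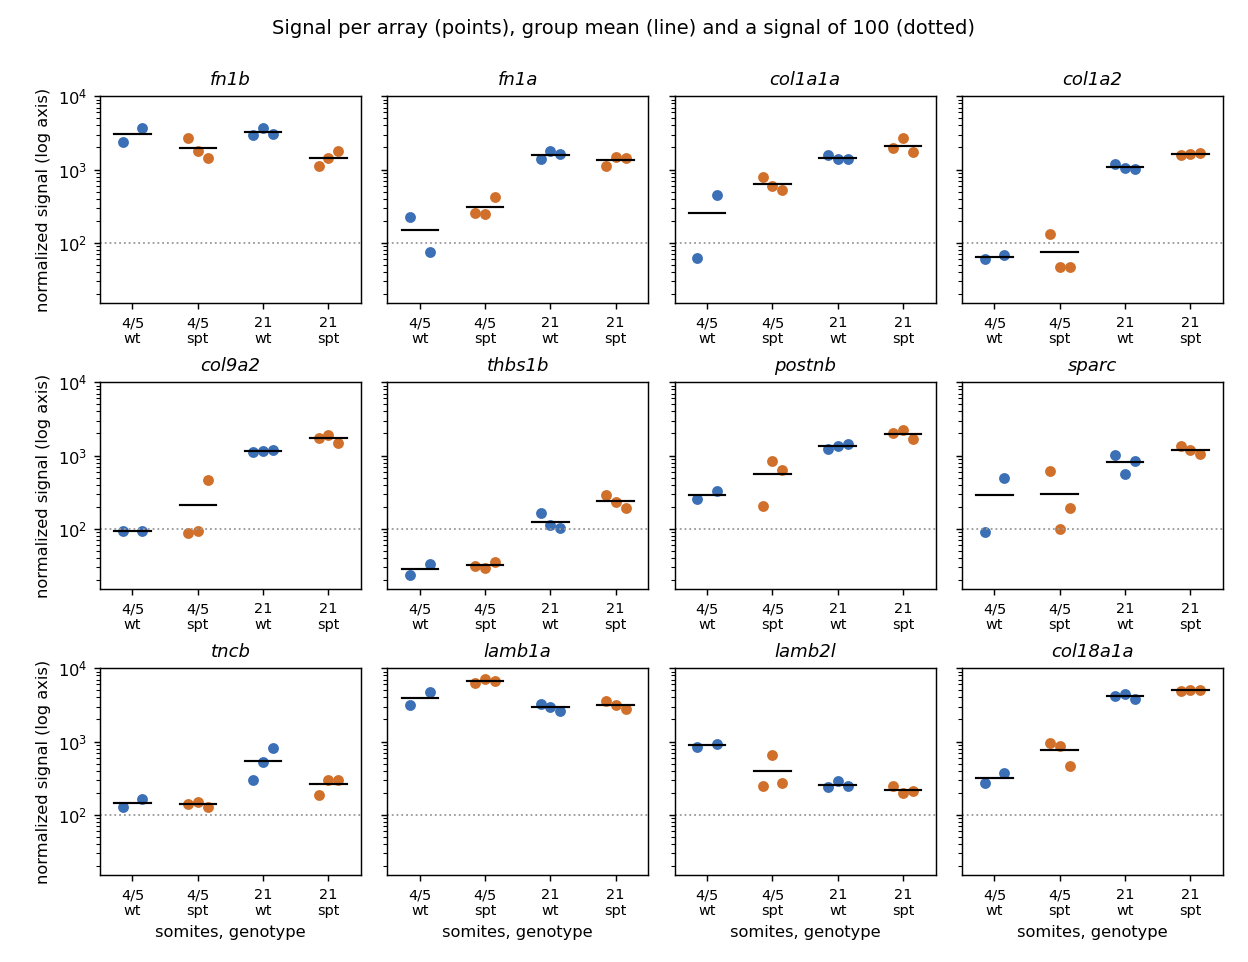
Signal on each array (points, log axis, quantile-normalized within stage) of 12 matrix genes in wild type (wt, blue) and spt (orange) at 4/5 and 21 somites, with the mean of each group (line) and a signal of 100 (dotted). At 21 somites fn1b is lower in spt on every array, while col1a2, col9a2, thbs1b and postnb are higher on every array. At 4/5 somites the points of 1 genotype often spread further than the genotypes differ.

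Marker genes of the tissues in the tail moved between the genotypes too. Of 17 muscle markers with a probe set, 16 were lower in spt and 6 of them were called, and their summed signal ran from 26405 to 33113 in wild type and from 15627 to 17372 in spt. Of 10 genes of early paraxial mesoderm, a list added after values had been seen, 10 were lower and 5 called, with sums of 11712 to 16317 in wild type and 6869 to 7346 in spt. All 8 red blood cell markers were called lower. On the other side, 9 of 9 floor plate and neural markers had positive values with 0 called, and their sums ran from 8633 to 10266 in wild type and from 12933 to 13655 in spt.

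The 12 markers of epidermis and fin fold summed to between 20048 and 27168 in wild type and between 24499 and 33864 in spt, and 10 of them had positive values. The 9 notochord markers ran from 9065 to 9688 in wild type and from 9740 to 11102 in spt, with 6 positive. The 7 sclerotome and tendon markers ran from 3511 to 3866 in wild type and from 2750 to 2927 in spt, with 5 negative. In the epidermis, notochord and sclerotome lists 0 markers were called, and no marker of the muscle, neural and epidermis lists was below 100 on all tail arrays. The 6 pronephros markers summed to between 1214 and 1899 in wild type and between 2671 and 3134 in spt, and 1 of them, cdh17, was called higher with a log2 fold change of 1.90 (limma adjusted p = 0.00298). The 3 endothelium markers ran from 616 to 863 in wild type and from 893 to 1192 in spt, and the 8 genes of the response to dissociation from 2798 to 3252 in wild type and from 3372 to 3826 in spt. All members of the endothelium and dissociation lists had positive values and 0 were called. The part of any of these lists in the values of fn1b and of the collagens was not tested.

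Genes that work with the matrix genes were read from 4 further lists. Of 12 genes for collagen processing, 11 had positive values in spt tails and 0 were called, with a median log2 fold change of 0.21. The first of them by p was p4ha1b, a subunit of the enzyme that hydroxylates collagen prolines, at 1039, 1168 and 1241 in wild type and 1593, 1767 and 1711 in spt, which do not overlap. Its log2 fold change was 0.55 with a standard error of 0.13 (limma adjusted p = 0.151). The serpinh1b gene, for the collagen chaperone Hsp47, had a value of 0.19.

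Among 10 partners of basement membrane and matrix, efemp2b, a fibulin gene, was called lower, and 0 were called higher. It read 4373, 4749 and 4596 in wild type and 2819, 3306 and 2916 in spt. All spt arrays were below all wild-type arrays, with a log2 fold change of -0.60 and a standard error of 0.09 (limma adjusted p = 0.0244). The adjusted p of efemp2b ranged from 0.0501 to 0.138 when 1 array was left out, so the call rested on all 6 arrays, and it was 0.131 without the variance trend and 0.874 in the fit of all arrays. A second fibulin gene, fbln1, had a value of -0.56 and an adjusted p of 0.74.

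Among 13 genes for proteoglycans and hyaluronan, has2 was called lower and 0 were called higher. It encodes an enzyme that makes hyaluronan, and read 424, 402 and 375 in wild type and 224, 213 and 207 in spt. The groups were far apart relative to their spread, at -0.85 with a standard error of 0.14 (limma adjusted p = 0.0314). The call of has2 held without wild-type replicate 3 (adjusted p = 0.0492) and not without any other single array, with limma adjusted p-values from 0.0974 to 0.237, and it was 0.072 in the fit of all arrays. Of the 14 genes that link integrins to the cytoskeleton 0 were called, and ptk2ab, a focal adhesion kinase gene, was nearest with -0.83, a standard error of 0.17 and an adjusted p of 0.0835. Its arrays read 574, 464 and 545 in wild type and 340, 268 and 262 in spt. The 3 genes called lower in these lists and among the members, fn1b, has2 and efemp2b, were below wild type on each spt array. They were picked by their calls on these same arrays, which favours such separation, so it is not a further result.

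In the sorted intermediate mesoderm of the 4/5-somite stage, no matrix gene passed the test between the genotypes. The limma fit called 0 of 52 genes in either direction and 0 of the 15502 probe sets (0% higher and 0% lower), and the smallest adjusted p among members was 0.593. At an unadjusted p under 0.05, 3 members were higher, 5.77% beside 3.57% of all probe sets, and 0 were lower beside 3.63%. The arrays of the genotypes did not overlap for 6 members higher in spt and 7 lower, 11.5% and 13.5% of the members. Without overlap, 1920 of all 15502 probe sets were higher and 2242 lower, so such separation was frequent at this stage. The 52 values had 25 above 0 and a median of -0.02, as against -0.01 over all probe sets.

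The sorted cells read lower on the scale of the deposited values, for the matrix genes as over all probe sets. The median deposited signal of an array ran from 152 to 167 there and from 261 to 293 in the tail. After normalization within each stage, 69.6% of all probe sets were at 100 or above, against 83.5% in the tail. That normalization gives every array of a stage the same share. The scaling of the deposited values is not known, and the shares and counts against 100 depend on it. Every array of sorted cells was below 100 for 13 matrix genes, against 6 in the tail. In the sorted cells 24 matrix genes were at or above 100 on all arrays, against 45. The highest array of a genotype was more than 2-fold above the lowest for 20 genes, against 7 in the tail. The median ratio of the highest to the lowest array was 1.17 in wild type and 1.52 in spt, against 1.40 and 1.30 in the tail, so the wider median spread was that of spt alone, and the wild-type ratio rests on 2 arrays. The median standard error of a log2 fold change was 0.26 over the members with 5 arrays, compared with 0.17 in the tail with 6. Over all probe sets it was 0.28 in the sorted cells and 0.17 in the tail. As examples, mmp14b read 1081 and 196 on the wild-type arrays, sparc 90.2 and 493, and col1a1a 61.8 and 452. Replicate 5 of spt had col11a1a at 918, col9a2 at 461 and mmp9 at 818, each the highest of the 5 arrays by a wide margin.

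By unadjusted p, laminin genes came near the front in both directions. The lamb1a gene read 3126 and 4680 in wild type and 6294, 7217 and 6657 in spt. Every spt array was above both wild-type arrays, and the log2 fold change was 0.81 with a standard error of 0.21 (limma adjusted p = 0.593). The gene lamb2l, for a beta 2-like chain, read 855 and 915 in wild type and 247, 661 and 270 in spt. All spt arrays were below both wild-type arrays, at -1.28 with a standard error of 0.52 (adjusted p = 0.688). Of the other laminin genes, lama4 and lama5 had values of -0.11 and 0.41, and lamb4 and lamc1 stayed below 100 on all arrays. The lamc3 gene was below 100 on both wild-type arrays and reached 174 on only 1 spt array, so no fold is given.

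Of the collagens, col18a1a read 269 and 368 in wild type and 950.3, 879 and 468 in spt, with a log2 fold change of 1.18 and a standard error of 0.44 (limma adjusted p = 0.686). The spt arrays were all above wild type, and 1 of them by less. The gene col14a1a, for a collagen that binds to the surface of fibrils, read 164 and 169 in wild type and 103, 144 and 92.2 in spt, where all spt arrays were below wild type. The brightest probe set of mmp2 was below 100 on both wild-type arrays, at 23.2 and 29.1, and reached 175 on only 1 of 3 spt arrays, so no fold is given (adjusted p = 0.687). The other mmp2 probe set read 183 and 188 in wild type and 154, 203 and 151 in spt, at -0.14.

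The fibronectin genes went in opposite directions in the sorted cells, neither of them called. For fn1b the signals were 2405 and 3678 in wild type and 2661, 1792 and 1418 in spt, which overlap, with a log2 fold change of -0.65 and a standard error of 0.37 (limma adjusted p = 0.691). For fn1a they were 228 and 74.4 in wild type and 256, 247 and 422 in spt, at 1.09 with a standard error of 0.51 (adjusted p = 0.688). The second probe set of fn1a gave -0.08 there. The dimmest was below 100 on both wild-type arrays, at 30.2 and 48.8, and read 129, 55.9 and 113 in spt, so no fold is given. The integrin gene itga5 read 407 and 430 in wild type and 592, 1058 and 234 in spt, so that the spt arrays lay on both sides of wild type.

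By role, 4 of 6 fibrillar collagens, 4 of 12 other collagens, 5 of 7 laminins, 4 of 6 matricellular genes and 3 of 7 proteases had positive values in the sorted cells, and 0 of each were called. Their medians were 0.10, -0.11, 0.09, 0.11 and -0.02. The red blood cell markers of this stage summed to between 12513 and 12917 in wild type and between 1114 and 1174 in spt. The authors had examined such markers on the wild-type array they left out, so the choice of those kept is not independent of them. The neural markers summed to between 6438 and 7700 in wild type and between 4280 and 6065 in spt. The muscle markers summed to between 5529 and 5918 in wild type and between 3733 and 4511 in spt, and the pronephros markers to between 1620 and 1697 in wild type and between 1748 and 4576 in spt. None of these 4 sums overlapped between the genotypes. The early paraxial mesoderm genes, at 1925 to 2431 in wild type and 1306 to 1665 in spt, did not either. The sums of the notochord, sclerotome, epidermis, endothelium, white blood cell and dissociation markers overlapped. Positive values were held by 1 of 8 red blood cell, 3 of 9 neural, 6 of 17 muscle and 4 of 6 pronephros markers, with 0 called. The part of any of these lists in the values of the sorted cells was not tested.

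The 4 further lists had 0 genes called at 4/5 somites. Of the 12 genes for collagen processing 9 had positive values, with a median of 0.27. The p4ha1b gene, higher on every spt tail array, was here lower on every spt array, at 281 and 403 in wild type and 169, 156 and 167 in spt (limma adjusted p = 0.581). The tgfbi gene, whose product binds collagens and integrins, read 20.1 and 67.9 in wild type and 787, 240 and 192 in spt (adjusted p = 0.614).

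**Figure D3:**
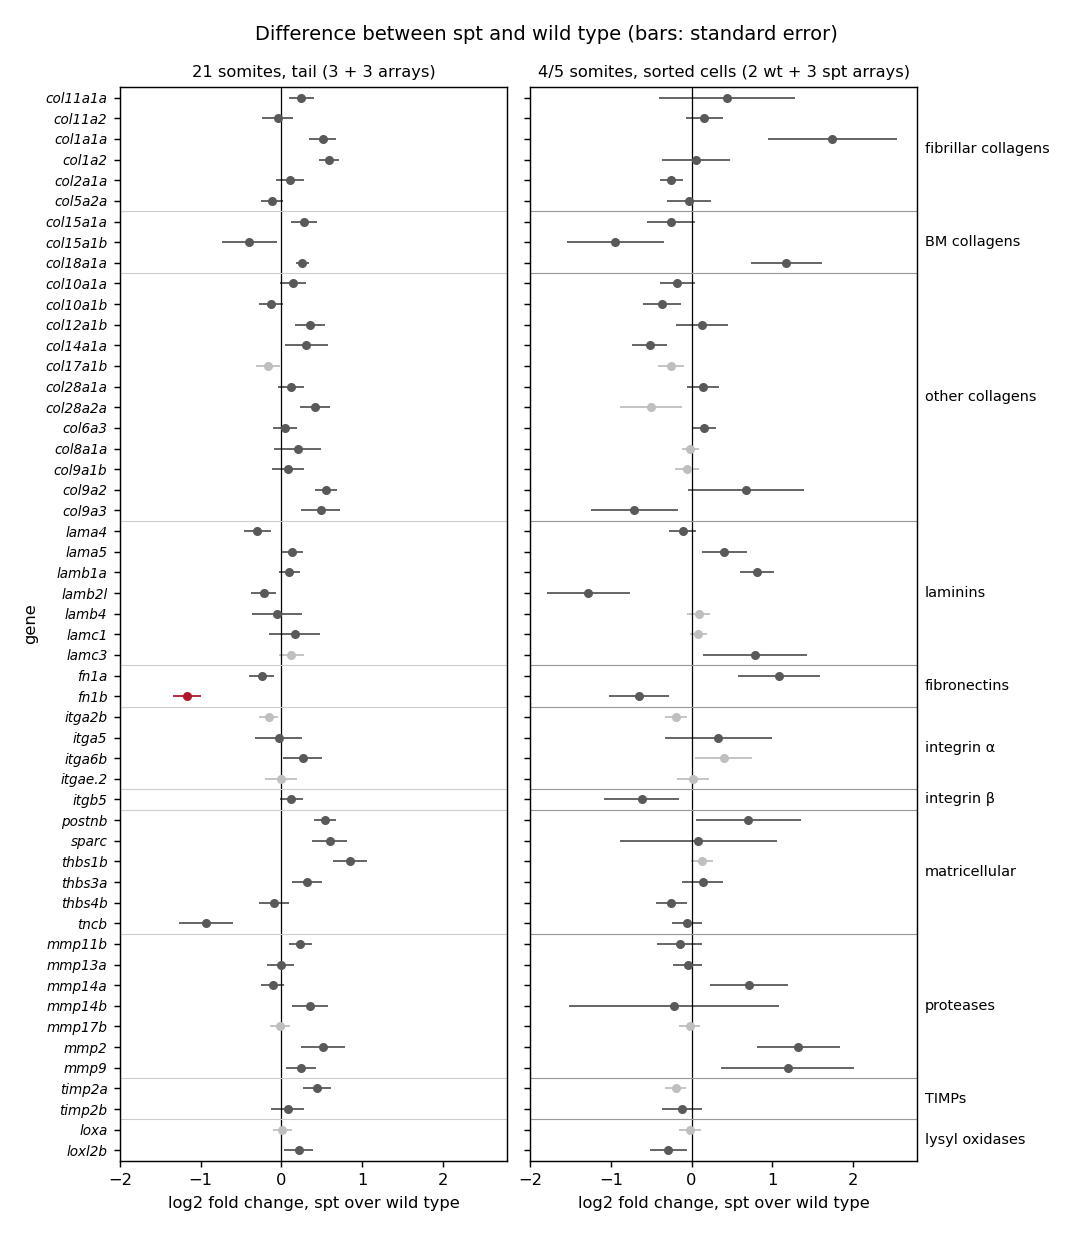
Log2 fold change of spt over wild type (points) with its standard error (bars) for the 52 matrix genes at 21 somites (left) and 4/5 somites (right), grouped by role (BM, basement membrane). Red marks an adjusted p under 0.05, which holds for fn1b at 21 somites alone, and light grey marks genes below 100 on all arrays of that stage. Bars are longer on the right, with medians of 0.26 over 5 arrays against 0.17 over 6.

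The differences between spt and wild type at the 2 stages were compared with an interaction term in a fit of all 11 arrays. It called 0 of 52 matrix genes in either direction, beside 0.232% of all probe sets called higher in the tail and 0.252% called lower. For fn1b the difference between the stages was -0.52 with a standard error of 0.40 (limma adjusted p = 0.761), so the call in the tail is not shown to be particular to it. The smallest adjusted p was that of lamb1a, 0.352, with a difference of -0.71. The next members by p were timp2a, thbs1b, fn1a at -1.33 and col18a1a at -0.92, with adjusted p-values from 0.448 to 0.481. No size is given for timp2a and thbs1b, which were below 100 on all 5 arrays of sorted cells. The value of fn1a ran from -2.04 without wild-type replicate 1 of the sorted cells to -0.63 without replicate 2, not called in either fit.

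Single arrays of the sorted cells decided whether a member was called here. Without spt replicate 4, lamb2l was called at 1.504 with a standard error of 0.26 (limma adjusted p = 0.022). Without wild-type replicate 2, col1a1a was called (adjusted p = 0.019), but that fit held 1 wild-type array of sorted cells, where the gene read 61.8, and assumed that it varied like the other groups, so no size is given. The other probe set of col1a1a gave 0.34 with all arrays, opposite in sign to the -1.23 of the brightest. With all arrays included, the adjusted p-values of lamb2l and col1a1a were 0.542 and 0.705.

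Between the sorted cells and the tail of wild-type embryos, many matrix genes differed. Stage, tissue, cell sorting and RNA amplification changed together and cannot be told apart, so the comparison describes 2 kinds of sample. With all arrays normalized together, 24 of 52 genes were higher in the tail and 9 lower, 46.2% and 17.3% of the members, while 20.8% of all probe sets were called higher and 25.3% lower. The median over the members was 0.87 and that over all probe sets was -0.12.

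The scaling between the stages moved these counts. With each stage normalized on its own, 29 members were higher and 3 lower, beside 38.2% and 11.9% of all probe sets, and the median of all probe sets was 0.42. With the deposited values it was 0.41, and 28 members were higher and 3 lower. The share of all probe sets called with the deposited values was not counted. The share of called members that were higher went from 72.7% to 90.6% and 90.3%. The same 24 genes were called higher under all 3 scalings, and 3 lower.

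Fibrillar collagens differed most. Of 6 genes 5 were higher in the tail, with col11a2 as the exception. For col2a1a the wild-type arrays read 151 and 139 in sorted cells and 2879, 3111 and 2378 in the tail, each stage normalized on its own. The log2 difference with all arrays normalized together was 3.86 with a standard error of 0.24 (limma adjusted p = 3.3e-06). The col5a2a gene, for a chain of type V collagen, went from 205 and 183 to 2506, 3370 and 2643, a difference of 3.47 with a standard error of 0.25. Its dimmer probe set was below 100 on all arrays, so no size is given for it. The col1a2 gene went from 61.1 and 67.8, below the level of 100 on both arrays of sorted cells, to 1186, 1048 and 1011.

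Where sorted cells were below 100 on both arrays, the fold is a lower bound set against that signal, on arrays normalized together. Among other collagens, col9a1b was at least 14.4-fold, col8a1a, whose product is found in the notochord sheath, at least 10.4-fold and col28a2a at least 7.57-fold higher in the tail. In all, 6 of these 12 genes were called higher and 4 lower. The genes col18a1a and col15a1a of the basement membrane were also higher, with differences of 3.45 and 1.43.

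The laminins divided. The lamc1 gene was at least 5.69-fold and lamb4 at least 2.37-fold higher in the tail, and lama5 was higher by 2.15 with a standard error of 0.26. In contrast, lamb1a was bright in both, at 3126 and 4680 in sorted cells and 3299, 2992 and 2638 in the tail. These signals were normalized within each stage, and on that scale the lamb1a difference was -0.37. With all arrays normalized together it was 0.03. The lamb2l gene was lower in the tail, where it read 239, 292 and 247 against 855 and 915, normalized within each stage. With all arrays normalized together the difference was -2.15 with a standard error of 0.31 (limma adjusted p = 0.000371). It was -1.71 with each stage on its own, and the call held under all 3 scalings.

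The fibronectin genes also differed in pattern. The fn1b signals of wild type, normalized within each stage, were of like size in sorted cells (2405 and 3678) and tail (3001, 3687 and 3073). The difference was 0.12 on that scale. With all arrays normalized together it was 0.50 with a standard error of 0.29 (limma adjusted p = 0.184). On arrays normalized together, the brightest probe set of fn1a was higher in the tail by 3.09 with a standard error of 0.42. The second probe set of that gene was instead called lower, at -0.99 (limma adjusted p = 0.0205), so the direction of fn1a depended on the probe set. The dimmest probe set of fn1a was below 100 on all wild-type arrays, so no size is given. Over the 10 genes with several probe sets, the probe sets had the same sign in 6 for this comparison, in 8 for spt against wild type in the tail and in 3 for the sorted cells. These counts include probe sets below 100 on all arrays, such as the dimmer one of col5a2a.

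The remaining groups were mixed. Of the integrins, itga6b was at least 1.55-fold higher in the tail, and itga5 had a value of -0.63 with an adjusted p of 0.307. Matricellular genes had thbs4b and postnb higher by 2.14 and 1.70, and thbs1b at least 1.03-fold higher, but the other probe set of postnb gave -0.13 (limma adjusted p = 0.788). Of the proteases, mmp14a was higher by 2.38, and timp2a was at least 2.59-fold higher. The brightest probe set of mmp2 was at least 5.85-fold higher, and its other probe set was called higher by 0.81 on the log2 scale. The loxa gene, called lower, was below 100 in every array. The mmp17b gene, also called lower, read 79.8 and 69.5 in sorted cells and 53.8, 46.3 and 42.0 in the tail when each stage was normalized on its own.

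The calls of lower members depended on single arrays as well as on scaling. Their number was 5 without wild-type replicate 1 of the sorted cells, 3 without replicate 2, and 5 and 6 without replicates 1 and 2 of the wild-type tail. The genes col10a1b, col28a1a, col6a3 and mmp13a, called lower with all arrays normalized together, had values of 0.03, 0.12, 0.10 and 0.19 with each stage normalized on its own. The remaining lower calls, col17a1b and itga2b, did not pass with each stage normalized on its own, with limma adjusted p-values of 0.698 and 0.628, and itga2b was below 100 on all arrays. Calls of higher members numbered 24 or 25 whichever array was left out. By their brightest probe sets, tncb, itgb5 and sparc were called only when an array was left out. For tncb this was at 1.36 without replicate 1 of the wild-type tail (limma adjusted p = 0.0074). The other tncb probe set was called with all arrays, at 0.44 (adjusted p = 0.0436). For itgb5 the value was -0.71 without spt replicate 3 of the sorted cells (adjusted p = 0.0251). For sparc it was the fit without wild-type replicate 2 of the sorted cells. No size is given for sparc, since the single wild-type array left in the sorted cells read 90.2 and was assumed to vary like the other groups.

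**Figure D4:**
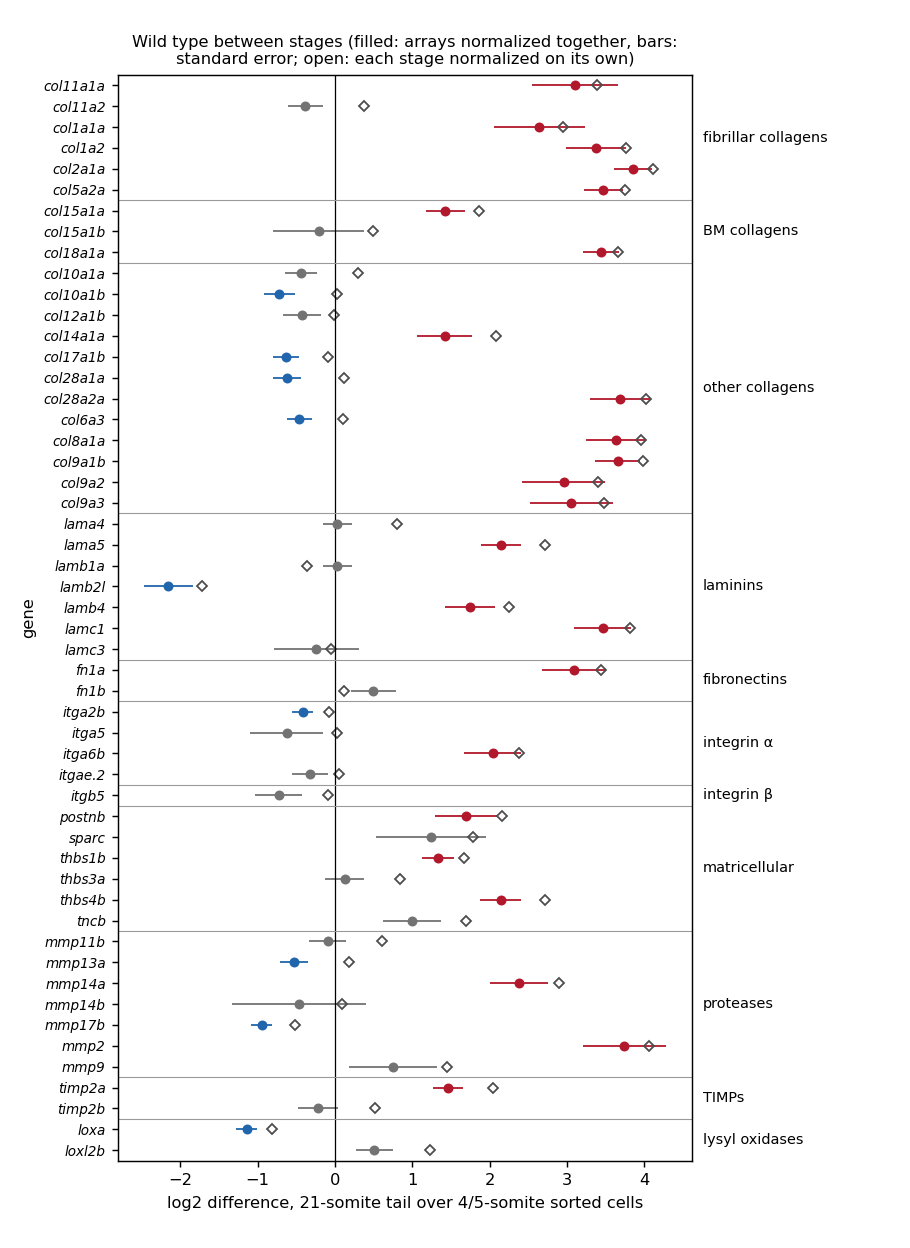
Log2 difference between wild-type tail at 21 somites and wild-type sorted cells at 4/5 somites for the 52 matrix genes, grouped by role (BM, basement membrane). Filled points are from arrays normalized together, with standard errors as bars (red, called higher; blue, called lower; grey, not called), and open diamonds are from each stage normalized on its own. Fibrillar collagens other than col11a2 lie above 2.5 in both, and lamb2l lies below -1.5 in both.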

How the data were processed

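The data are 11 single-colour Affymetrix Zebrafish Genome Arrays, with genotype, stage and replicate taken from the labels. Images were read by the authors in MAS5 5.0, the Affymetrix software, and the values they deposited are linear intensity values for each probe set on each array, from 0.08 to 20089. Which scaling between arrays they carry is not given in the sources used here. Replicates were not pooled, and the methods take them from separate clutches, so p-values measure the spread between these arrays.

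Control probe sets (115) were left out, which left 15502. Each stage was quantile-normalized on its own, 16 was added, and limma 3.58.1 in R 4.3.3 was run on the log2 values with a variance trend and without covariates. Benjamini-Hochberg adjustment took in all 15502 probe sets, and the threshold was 0.05. The comparison of stages in wild type used all arrays normalized together. Genes were named through the array annotation, and the 52 member symbols are current RefSeq symbols. The authors' own comparisons were not used.

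The members and lists were chosen with earlier results of these data known, and the early paraxial mesoderm list after values were seen. Genes are named in the text as up to 15 called members with the smallest p per comparison and direction, or the 5 members with the smallest unadjusted p where fewer than 5 were called, with the brightest member of each role group and the members that the study lists. Other genes (col1a1a, col9a3, tncb, sparc, mmp14b and further genes with values in the text) were chosen after their values were seen. Of the further lists, 12 of 26 names for collagen processing, 10 of 43 for matrix partners, 13 of 32 for proteoglycans and hyaluronan and 14 of 30 for integrin linkage had a probe set. The fit was tested on simulated data. Alternatives were the deposited values, other pseudocounts (1 and 64), a filter at a signal of 100, no variance trend, the mean of all probe sets of a gene, other scalings between stages, a fit of all arrays, the thresholds of the methods, and leaving out each array. A fit of the wild-type arrays only was a further alternative for the comparison of stages. Arrays have no read depth, and their number limits the precision.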

Additional observations from a re-analysis of the deposited data

How the results depend on the processing

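At 21 somites, the count of matrix genes higher in spt was 0 with the deposited values, with pseudocounts of 1 and 64, with the filter, without the variance trend, with the mean of all probe sets, in the fit of all arrays and without any 1 array (range 0 to 0). It was 7 at the thresholds of the methods (an unadjusted p under 0.05 and a minimum fold), 8 at an unadjusted p under 0.05 and 9 by arrays that do not overlap, the last 2 chosen after seeing the data. The count of lower genes was 1 under the same alternatives except the fit of all arrays, where it was 0, and 2 by each of the 3 looser rules, with a range of 0 to 1 when 1 array was left out. At 4/5 somites the counts were 0 in both directions under each alternative and without any 1 array (0 to 0), except for 3 higher at the methods' thresholds. The share of all probe sets past the methods' thresholds was not counted, so these counts cannot be set beside it. By the unadjusted p alone, 3.91% of all probe sets were higher and 3.54% lower at 21 somites. At 4/5 somites 3.57% were higher by that p. The interaction gave 0 to 1 higher and 0 to 1 lower when 1 array was left out, and 0 under the others.

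Between the stages of wild type, the count of lower genes was 3 with deposited values, 4 with the filter and 3 with each stage normalized on its own, and 3 to 10 when 1 array was left out, while that of higher genes was 24 to 25. Of the values of lower members that changed sign, col28a1a was 0.082 with deposited values and 0.12 with each stage on its own, mmp13a 0.14 and 0.19, and col6a3 0.070 and 0.10, and col10a1b was 0.029 with each stage on its own. The cause was not tested. Over the 39 named values and 664 alternatives, 623 kept direction and side of the threshold, 34 kept the direction without passing, 0 passed anew and 7 changed sign. No brightest probe set had the name ending _x_at, which marks known cross-hybridization, so that alternative changed nothing. Other endings, such as the _s_at of both col1a1a probe sets, were not examined. No paired analysis was possible because wild-type and spt arrays of a stage share no replicate numbers in the labels. Signal over background was not measured here. After normalization within each stage, 69.6% of probe sets were at 100 or above in the sorted cells, against 83.5% in the tail.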
